A study of Homo sapiens with 21 samples.

Results

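The G1 cyclins, their kinases and the inhibitors of these kinases are described here by 10 genes chosen by name from a list: the D cyclins CCND1 and CCND3, the E cyclins CCNE1 and CCNE2, the kinases CDK4, CDK6 and CDK2, and the inhibitors CDKN1B (p27), CDKN2B (p15) and CDKN2C (p18). The deposited table holds 65065 genes, each of the 10 matched 1 identifier, and all 10 are among the 19556 genes tested after low counts were filtered out. D cyclins bind CDK4 or CDK6 and E cyclins bind CDK2, and these complexes phosphorylate the retinoblastoma protein so that E2F factors can switch on the genes of DNA replication. The INK4 inhibitors p15 and p18 bind CDK4 and CDK6, whereas p27 binds complexes of cyclin and kinase, mainly those of CDK2. Cyclin E genes are themselves E2F targets, and the INK4 inhibitor p15 is known as a gene that TGF-beta switches on in epithelial cells.

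HCT-116, a human colorectal carcinoma line of epithelial-like cells, was grown in DMEM with 10% exosome-depleted serum and given extracellular vesicles (EVs), particles that cells shed, isolated from human serum by GlyExo-Capture. The vesicles came from patients with HCC (HCC+, the labels' abbreviation) or from healthy people (HCC-), each at 1.2, 0.24 and 0.048 mg/mL, and cells given none were the blank. Each of these 7 groups has 3 libraries of poly(A) RNA, 21 in all, which serve to compare both vesicle sources with each other and with the blank. The labels give neither the number of serum donors, nor pooling, nor the time of exposure, nor whether cultures were separate within a group, so p-values measure the spread between these libraries, which may be technical.

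The libraries held 31.22 to 64.01 M (mega) counts, and 99.96% of counts lay in tested genes. Levels are in CPM, read counts scaled to the size of the library with TMM factors, and genes rose or fell, in these terms, if edgeR's quasi-likelihood test gave an adjusted p under 0.05 (Benjamini-Hochberg, over all tested genes). Levels of different genes are compared only in TPM, which first divides counts by gene length. The 5 epithelial markers EPCAM, KRT8, KRT18, KRT19 and CDH1 summed to 3657 to 4930 CPM in the libraries of 6 groups and to 3263 to 3534 CPM, below all of these, with HCC- at 1.2 mg/mL. EPCAM changed there by -0.31 ± 0.06 log2 against the blank (adjusted p 0.000148), KRT8 by -0.27 ± 0.07 (0.000844) and KRT18 by -0.46 ± 0.07 (5.52e-07), while KRT19 and CDH1 did not pass. Markers of other cells were low and highest at 1.2 mg/mL for leukocytes (6 genes, S100A8 and S100A9 at 0 in every library), whose sum was 1.15 to 1.53 CPM in blank libraries, 2.97 to 4.19 CPM in HCC+ and 5.09 to 6.92 CPM in HCC- libraries, and for endothelium (2 genes; 0.440 to 0.591, 2.58 to 3.28 and 5.61 to 7.81 CPM). The fibroblast gene COL1A1 was at 14.2 to 17.7, 21.3 to 30.7 and 28.2 to 34.1 CPM in these groups. Erythroid markers (3 genes) summed to at most 0.903 CPM, liver markers (3 genes) to at most 3.66 CPM, and platelet markers (3 genes, PPBP and PF4 at 0 in every library) to at most 4.07 CPM. The part of these in the results at 1.2 mg/mL was not tested. In bulk RNA, fewer cells of a kind (such as cells in a given phase of the cycle) and less RNA per cell cannot be told apart.

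Promoters of 3 genes are shown because their levels moved in different ways: CDK4 and CCNE1 fell with HCC- vesicles at 1.2 mg/mL while CDKN2B rose. The sequences are the 250 bases before the RefSeq start (GRCh38.p14), read 5′ to 3′ on the gene's strand: chr12:57752311-57752560, minus strand, for CDK4, chr19:29811741-29811990, plus strand, for CCNE1, and chr9:22009306-22009555, minus strand, for CDKN2B. Capitals mark the E-box CACGTG, the sequence that MYC and its relatives bind.
CDK4: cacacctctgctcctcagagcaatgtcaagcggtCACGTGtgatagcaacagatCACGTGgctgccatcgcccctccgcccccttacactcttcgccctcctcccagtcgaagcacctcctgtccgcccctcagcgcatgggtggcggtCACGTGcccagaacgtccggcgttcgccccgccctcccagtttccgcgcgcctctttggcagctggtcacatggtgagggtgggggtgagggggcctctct
CCNE1: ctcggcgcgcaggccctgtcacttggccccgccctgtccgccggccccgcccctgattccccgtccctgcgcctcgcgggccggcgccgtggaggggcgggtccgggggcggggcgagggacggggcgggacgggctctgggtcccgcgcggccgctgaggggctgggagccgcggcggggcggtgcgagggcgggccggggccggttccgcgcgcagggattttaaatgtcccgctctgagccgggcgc
CDKN2B: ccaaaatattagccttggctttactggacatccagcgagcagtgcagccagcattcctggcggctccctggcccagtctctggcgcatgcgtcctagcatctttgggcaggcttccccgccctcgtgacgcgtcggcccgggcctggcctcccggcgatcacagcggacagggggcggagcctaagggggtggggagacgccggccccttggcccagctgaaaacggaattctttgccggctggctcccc
RefSeq promoter windows of 300 bases (250 before and 50 from the start on) were found for 7 of the 10 genes: CCND3, CCNE1, CDK4, CDK6, CDKN1B, CDKN2B and CDKN2C. The CDK4 window held the E-box 3 times, at positions -216, -196 and -101 from the start. CDK6 held it once, at position 31, and 2 of 3 windows of CDKN2C held it, at -220 and -69. Among all 35116 RefSeq promoter windows 7.256% held it. The FOXO motif GTAAACA was in 1 window of CCND3, at -2, and in 3.423% of all windows. The E2F forms TTTCCCGC, TTTGGCGC, TTTCGCGC and TTTGCCGC (3.315% of all windows) and the CRE TGACGTCA (1.848%) were in none of the 7 genes' windows. Motifs were searched on both strands, and the 4 E2F forms were counted together. A match shows letters only, not binding.

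Per length, cyclin D1 and CDK4 had the highest levels of the 10 genes in untreated cells. CCND1 stood at 220 ± 11.1 TPM (SD, n = 3) and CDK4 at 192 ± 11.2 TPM in the blank. CDK2 at 74.5 ± 8.15 TPM and CCNE1 at 65.3 ± 3.19 TPM came next, with overlapping libraries. CDKN1B was at 44.4 ± 1.49 TPM, CCND3 at 22.3 ± 1.77 TPM and CDKN2C at 13.8 ± 0.0824 TPM. CDK6 at 12.7 ± 1.89 TPM overlapped both CDKN2C and CCNE2, the latter at 10.1 ± 1.35 TPM. CDKN2B was lowest, at 6.95 ± 0.928 TPM. CCND2, the remaining D cyclin, did not pass the filter and reached at most 0.360 CPM in any library.

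At 1.2 mg/mL, HCC- vesicles went with lower levels of every cyclin measured here and of CDK4, CDK2 and CDKN2C, and with a higher level of CDKN2B. Of the 10 genes 1 rose and 7 fell against the blank (24.8% and 28.5% of all tested genes did), with a median log2 fold change of -0.53 beside 0.05 over all tested genes. CDK6 and CDKN1B did not pass the test. With HCC+ vesicles at this dose 2 rose and 4 fell (15.6% and 17.4% of all tested genes), with a median of -0.12 beside 0.01. The comparisons with the blank share the blank libraries, so their values are set side by side and not correlated. Scaling to total count alone moved the median of all genes up by 0.28 log2 for HCC- and by 0.12 for HCC+ at this dose. With it all genes called split into 8128 higher and 3097 lower for HCC- (4844 and 5574 with TMM), and 4657 and 2069 for HCC+ (3046 and 3398 with TMM). The directions of the called members of the 10 were the same under that scaling.

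**Figure D1:**
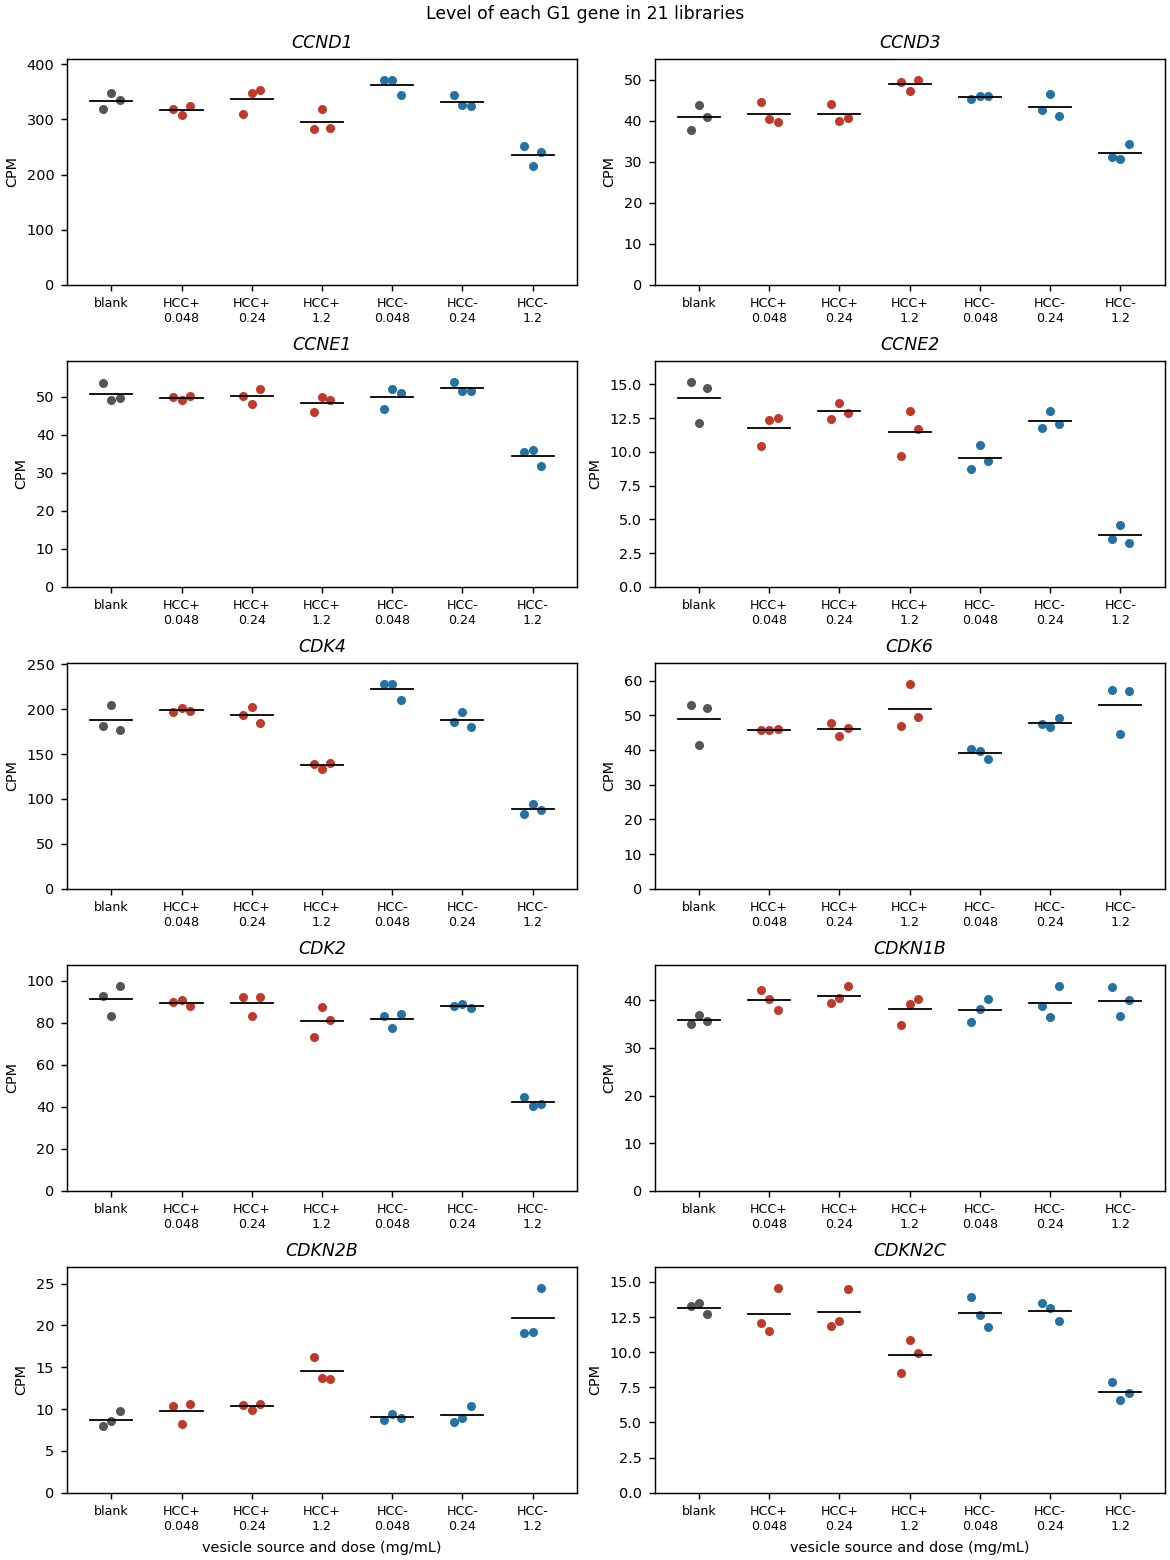
Level of each of the 10 genes in all 21 libraries: CPM on the vertical axis from 0, vesicle source and dose (mg/mL) on the horizontal axis, points for single libraries and bars for group means. The HCC- 1.2 mg/mL libraries are lowest for 7 genes and highest for CDKN2B, while CDK6 and CDKN1B overlap the blank.

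Cyclin D1 (CCND1, ENSG00000110092, chr11:69641087-69654474), which carries growth signals to CDK4 and CDK6, was lowest with HCC- vesicles at 1.2 mg/mL. The blank libraries held 320, 348 and 335 CPM, those with HCC+ vesicles at 1.2 mg/mL 282, 320 and 285 CPM, and those with HCC- vesicles 252, 216 and 242 CPM. All 3 HCC- libraries lay below all others in the study, and the HCC+ libraries lay just below the blank. At the lower doses the group means were 317 to 362 CPM, highest with HCC- at 0.048 mg/mL (362 ± 16.1 CPM, SD, n = 3). The fall was -0.50 ± 0.06 (log2 fold change ± SE) with HCC-, at an adjusted p of 6.38e-08, and -0.18 ± 0.06 with HCC+, at 0.0297. The HCC+ call of CCND1 held in 6 of 13 alternatives. It gave -0.06 (adjusted p 0.493) with total count alone, -0.14 (0.179) without HCC+ 1.2 mg/mL replicate 1, -0.15 (0.143) without its replicate 3, -0.15 (0.0867) without blank replicate 2 and -0.18 (0.0665) without blank replicate 3. With GC and length trends removed the HCC+ change was -0.35 (0.00696). The HCC- change was -0.22 (0.00268) with total count alone. LTO1, on the opposite strand, shares 10.3% of the exon bases of CCND1.

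Cyclin D3 (CCND3, ENSG00000112576, chr6:41934933-42050357), another partner of CDK4 and CDK6, moved in opposite directions with the 2 sources. Its libraries held 37.6, 44.0 and 41.0 CPM in the blank, 49.5, 47.2 and 50.1 CPM with HCC+ at 1.2 mg/mL, and 31.1, 30.7 and 34.4 CPM with HCC-. The HCC+ libraries were the highest of the study and the HCC- libraries the lowest, with no overlap with any other group. CCND3 rose by 0.26 ± 0.07 log2 with HCC+ (adjusted p 0.00686) and changed by -0.35 ± 0.07 with HCC- (0.000183). The rise was 0.20 (adjusted p 0.0583) without blank replicate 1 and 0.11 (0.168) with GC and length trends removed. The HCC- change was -0.07 (0.466) with total count alone.

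CDK4 (ENSG00000135446, chr12:57747727-57756013), the kinase of the D cyclins with the higher level, fell with both sources at 1.2 mg/mL. Its libraries held 182, 204 and 177 CPM in the blank, 139, 133 and 140 CPM with HCC+, and 83.3, 94.5 and 87.9 CPM with HCC-. The 3 groups did not overlap, with HCC- lowest and HCC+ between HCC- and the blank. The log2 fold change was -0.45 ± 0.06 with HCC+ (adjusted p 1.27e-06) and -1.08 ± 0.06 with HCC- (3.27e-15), a level 0.472 times that of the blank. At 0.048 mg/mL the HCC- libraries held 228, 228 and 211 CPM, above every other group. TSPAN31 on the opposite strand shares 44.2% of the exon bases of CDK4, and how strand was counted is not given in the sources used here. TSPAN31 itself was at 6.67 ± 1.35 CPM in the blank and 14.6 ± 0.723 CPM with HCC- at 1.2 mg/mL (SD, n = 3), a rise of 1.13 ± 0.12 log2 (adjusted p 3.38e-09) where CDK4 fell.

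CDK6 (ENSG00000105810, chr7:92604921-92836594), the other kinase of the D cyclins, did not follow CDK4. Libraries of the blank held 52.8, 41.5 and 52.2 CPM, those of HCC+ at 1.2 mg/mL 46.9, 59.1 and 49.6 CPM, and those of HCC- 57.3, 44.5 and 57.0 CPM. These groups overlapped, and in each a single library stood apart from the other 2. The log2 fold change of CDK6 was 0.09 with HCC+ (95% interval -0.11 to 0.29) and 0.12 with HCC- (-0.08 to 0.32), neither past the test. With HCC- it was 0.40 (adjusted p 0.00043) with total count alone and 0.24 (0.0288) without HCC- 1.2 mg/mL replicate 2. CDK4 made up 93.8 ± 1.16% (SD, n = 3) of the summed TPM of CDK4 and CDK6 in the blank, 91.3 ± 1.19% with HCC+ and 86.8 ± 2.23% with HCC- at 1.2 mg/mL. The HCC- and HCC+ libraries did not overlap each other or the blank in this share, and the 4 groups at lower doses had means of 93.9% to 95.7%. With 3 libraries against 3 no exact permutation test can go below p = 0.1, so shares are given without a test.

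Cyclin E1 (CCNE1, ENSG00000105173, chr19:29811991-29824312), which activates CDK2 at the entry to S phase, fell with HCC- vesicles and did not pass the test with HCC+. It stood at 53.5, 49.0 and 49.6 CPM in the blank, 46.1, 49.8 and 49.2 CPM with HCC+ at 1.2 mg/mL, and 35.3, 35.9 and 31.8 CPM with HCC-. The HCC- libraries lay below those of every other group, and the other groups overlapped. The log2 fold change was -0.56 ± 0.07 with HCC- (adjusted p 2.21e-08) and -0.07 with HCC+ (0.477; 95% interval -0.21 to 0.08). With total count alone the HCC- change of CCNE1 was -0.28 (adjusted p 0.000798).

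Cyclin E2 (CCNE2, ENSG00000175305, chr8:94879770-94896678), the second partner of CDK2, had the largest fall of the 10 genes. The blank libraries held 15.2, 12.1 and 14.7 CPM, the HCC+ libraries at 1.2 mg/mL 9.70, 13.0 and 11.7 CPM and the HCC- libraries 3.56, 4.60 and 3.23 CPM. HCC- stood well below all other groups and HCC+ overlapped the blank. The log2 fold change was -1.89 ± 0.13 with HCC- (adjusted p 2.59e-13), 0.270 times the blank. With HCC+ it was -0.29 ± 0.12 and did not pass (0.0762), although it did without blank replicate 2 (-0.38, 0.0232) or HCC+ 1.2 mg/mL replicate 2 (-0.39, 0.0291). CCNE1 held 86.6 ± 1.08% of the summed TPM of both E cyclins in the blank, 88.3 ± 1.11% with HCC+ and 94.2 ± 0.774% with HCC- (SD, n = 3), where all 3 libraries lay above those of every other group. INTS8 on the opposite strand shares 37.0% of the exon bases of CCNE2, and it fell by 0.40 ± 0.08 log2 with HCC- at 1.2 mg/mL (adjusted p 0.000121).

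CDK2 (ENSG00000123374, chr12:55966781-55972789), the kinase of the E cyclins, fell with HCC- vesicles at 1.2 mg/mL. It held 92.6, 83.0 and 97.7 CPM in the blank, 73.4, 87.3 and 81.1 CPM with HCC+ at 1.2 mg/mL, and 44.8, 40.4 and 41.2 CPM with HCC-. The HCC- libraries were far below the rest, and HCC+ overlapped the blank. The log2 fold change was -1.11 ± 0.07 with HCC- (adjusted p 2.22e-14), 0.463 times the blank. With HCC+ it was -0.18 ± 0.07 at an adjusted p of 0.0497, and this call of CDK2 held in 3 of 13 alternatives. Among others it was lost without HCC+ 1.2 mg/mL replicate 1 (-0.10, 0.338) or its replicate 3 (-0.18, 0.106). The same held without blank replicate 1 (-0.17, 0.114) or blank replicate 3 (-0.12, 0.249). With 1 library left out the value ran from -0.24 to -0.10, and over all 13 alternatives from -0.24 to -0.06. Genes on the opposite strand share 16.8% of the exon bases of CDK2.

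The inhibitor p15 (CDKN2B, ENSG00000147883, chr9:22002903-22009305) rose with both sources at 1.2 mg/mL. Its libraries held 7.95, 8.54 and 9.73 CPM in the blank, 16.2, 13.7 and 13.6 CPM with HCC+, and 19.0, 19.2 and 24.5 CPM with HCC-. The HCC- libraries were the highest, the HCC+ libraries next, and neither overlapped the other or any lower group. CDKN2B rose by 0.73 ± 0.12 log2 with HCC+ (adjusted p 1.66e-05), 1.66 times the blank, and by 1.25 ± 0.12 with HCC- (1.74e-10), 2.39 times the blank. At lower doses the group means lay between 9.02 and 10.3 CPM, all near the blank at 8.74 ± 0.906 CPM (SD, n = 3). CDKN2B-AS1, which starts from the other strand of this locus but shares no exon base with CDKN2B, was at 1.92 ± 0.452 CPM in the blank and 0.920 ± 0.317 CPM with HCC- at 1.2 mg/mL, a change of -1.05 ± 0.24 log2 (adjusted p 0.000556).

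The inhibitor p18 (CDKN2C, ENSG00000123080, chr1:50960745-50974634), which binds the same kinases as p15, went the other way. Its libraries held 13.3, 13.5 and 12.7 CPM in the blank, 8.52, 10.9 and 9.96 CPM with HCC+ at 1.2 mg/mL and 7.86, 6.59 and 7.11 CPM with HCC-. Both vesicle groups lay below the blank without overlap, HCC- lowest. The change of CDKN2C was -0.43 ± 0.11 log2 with HCC+ (adjusted p 0.00383) and -0.87 ± 0.12 with HCC- (1.33e-07). As a share of the summed TPM of the 2 INK4 genes, a measure chosen after the values were seen, CDKN2B rose from 31.1%, 32.3% and 36.6% in the blank to 59.0%, 48.8% and 50.8% with HCC+ and 64.6%, 68.7% and 72.2% with HCC-.

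The inhibitor p27 (CDKN1B, ENSG00000111276, chr12:12715058-12722369) did not pass the test in any comparison and had the narrowest range of group means, relative to its level, of the 10 genes. It held 35.1, 36.9 and 35.7 CPM in the blank, 34.8, 39.3 and 40.3 CPM with HCC+ at 1.2 mg/mL and 42.8, 36.7 and 40.1 CPM with HCC-. Group means over the whole study were 35.9 to 41.0 CPM, and groups next to each other in level overlapped. The HCC+ libraries at 0.24 mg/mL (39.5 to 42.9 CPM) and 0.048 mg/mL (37.9 to 42.2 CPM) lay above the blank, at adjusted p of 0.776 and 0.938. At 1.2 mg/mL CDKN1B differed from the blank by 0.09 log2 with HCC+ (95% interval -0.08 to 0.26) and by 0.15 with HCC- (-0.02 to 0.32, adjusted p 0.106). Under other scalings it was called with both: 0.44 (adjusted p 3.13e-05) for HCC- with total count alone and 0.45 (7.57e-07) with GC and length trends removed, and 0.21 (0.0464) and 0.24 (0.00607) for HCC+. Without HCC- 1.2 mg/mL replicate 2 it was 0.22 (0.0358).

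**Figure D2:**
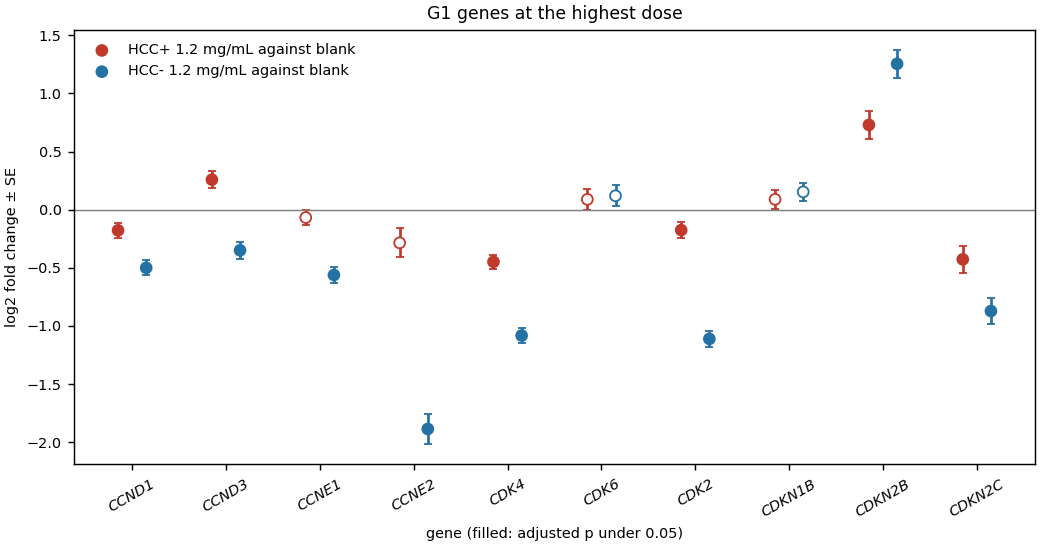
Log2 fold change against the blank at 1.2 mg/mL with its SE for each gene on the horizontal axis, red for HCC+ and blue for HCC-, filled where the adjusted p was under 0.05. HCC- values run from -1.89 for CCNE2 to 1.25 for CDKN2B, and 8 of 10 are filled.

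**Figure D3:**
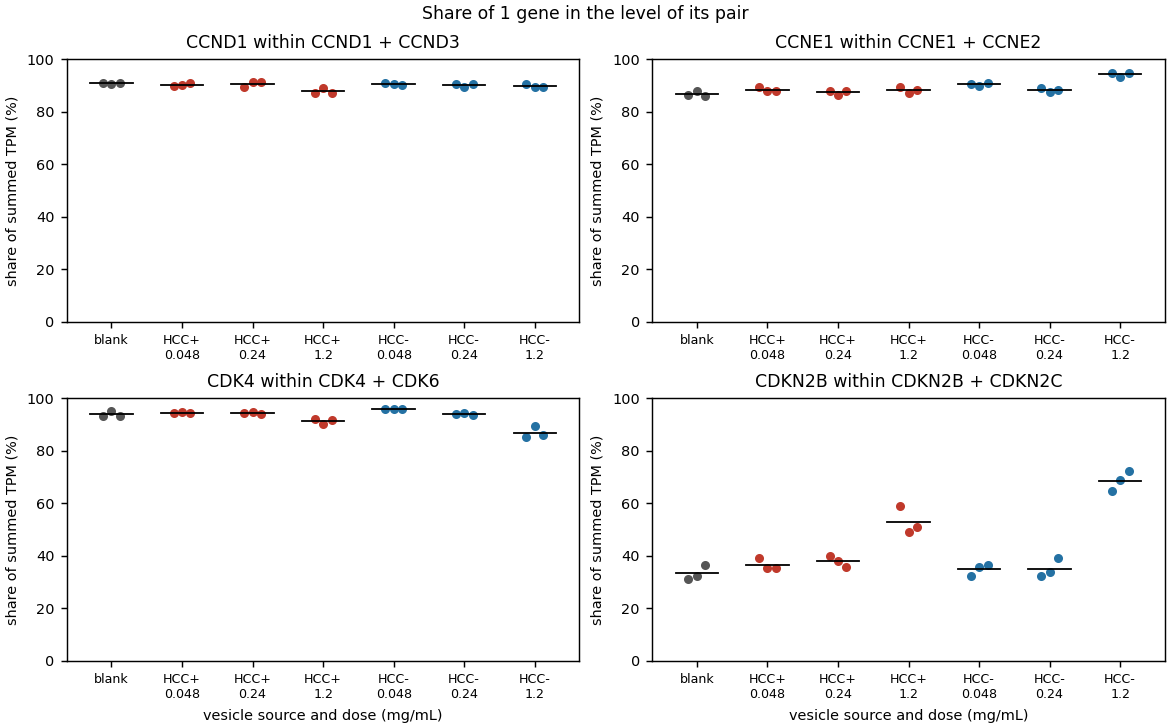
Share of 1 gene in the summed TPM of a pair, in percent, by vesicle source and dose (mg/mL), points for libraries and bars for means. CDKN2B holds 33.3% of its pair in the blank and 68.5% with HCC- at 1.2 mg/mL.

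The direct comparison of the sources at 1.2 mg/mL gave higher levels with HCC+ than with HCC- for 7 genes and a lower level for CDKN2B (22.6% and 12.7% of all tested genes), with a median log2 difference of 0.47 beside 0.01. CCNE2 differed most, at 1.60 ± 0.13 (adjusted p 5.27e-11), followed by CDK2 at 0.94 ± 0.07 (6.98e-12), CDK4 at 0.63 ± 0.06 (2.1e-09), CCND3 at 0.61 ± 0.07 (1.05e-07) and CCNE1 at 0.49 ± 0.07 (7.48e-07). CDKN2C differed by 0.44 ± 0.11 (0.00273), CCND1 by 0.32 ± 0.06 (0.000159) and CDKN2B by -0.53 ± 0.11 (0.000461). The libraries of the 2 sources did not overlap for any of these 8 called genes. How often this held among all tested genes was not counted. CDK6 differed by -0.03 (95% interval -0.23 to 0.16) and CDKN1B by -0.06 (-0.23 to 0.10). With total count alone CCND1 was at 0.16 (adjusted p 0.0381), CDKN2C at 0.28 (0.0501) and CDKN1B was called at -0.23 (0.026). In all, CDKN1B was called in 2 of 13 alternatives here.

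At the middle dose no gene of the 10 passed the test. Against the blank 0 of 10 were called with HCC+ at 0.24 mg/mL (0.00511% of all tested genes) and 0 with HCC- (0%), and 0 differed between the sources (0%). At an unadjusted p under 0.05 the edgeR counts were 1 (CDKN1B with HCC+, 0.19 log2, p 0.0228), 0 and 0, and DESeq2 called 0 in each. Shares of all tested genes by unadjusted p or by DESeq2 were not counted. The largest difference from the blank at this dose was 0.24 log2, for CDKN2B with HCC+ (unadjusted p 0.0597 in edgeR).

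At the lowest dose HCC+ vesicles again gave 0 of 10 (0% of all tested genes; 0 at an unadjusted p under 0.05 in edgeR and 0 called by DESeq2). HCC- vesicles gave 1 higher and 2 lower (8.28% and 8.16% of all tested genes). These shares stand for 1620 genes higher and 1596 lower, which became 14 and 18 with GC and length trends removed. CCNE2 changed by -0.55 ± 0.13 log2 (adjusted p 0.00865), with libraries at 8.75, 10.5 and 9.31 CPM, all below the blank. CDK6 changed by -0.32 ± 0.09 (0.0217), with libraries at 40.3, 39.7 and 37.3 CPM, also all below the blank. CDK4 rose by 0.25 ± 0.06 (0.0113), its libraries all above the blank. None of the 3 calls stood without blank replicate 1 (adjusted p 0.0996 for CCNE2, 0.161 for CDK6 and 0.108 for CDK4) or without blank replicate 3 (0.063, 0.126 and 0.0874), and none with GC and length trends removed (0.298, 0.216 and 0.39). Without HCC- 0.048 mg/mL replicate 2 CCNE2 alone was called (0.0598 for CDK4 and 0.0658 for CDK6), and CDK6 was also lost without replicate 3 of that group (0.0783). Without blank replicate 2 the count was 5, with CCND3 at 0.22 (0.0333) and CDK2 at -0.22 (0.0156) added. Between the sources at this dose 0 of 10 were called (3.54% of all tested genes by the same rule). At an unadjusted p under 0.05 edgeR gave 4, and DESeq2 called 2, CCND1 at -0.20 (adjusted p 0.0206) and CDK4 at -0.17 (0.032). Shares of all tested genes by unadjusted p or by DESeq2 were not counted at this dose either.

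Between the highest and the lowest dose, HCC+ vesicles gave 2 genes higher and 2 lower (13.4% and 14.9% of all tested genes): CCND3 at 0.23 ± 0.07 log2 (adjusted p 0.0174), CDKN2B at 0.57 ± 0.12 (0.000362), CDK4 at -0.53 ± 0.06 (1.09e-07) and CDKN2C at -0.38 ± 0.11 (0.0122). Without HCC+ 0.048 mg/mL replicate 3 CCND3 (0.0991) and CDKN2C (0.116) were no longer called. Nor was CCND3 without replicate 2 of that group (0.0791) or HCC+ 1.2 mg/mL replicate 3 (0.0654) or with GC and length trends removed (0.13, 0.0963), nor CDKN2C without HCC+ 1.2 mg/mL replicate 1 (0.113) or with total count alone (-0.28, 0.0578). CDK6 was called at 0.28 (0.0223) with total count alone. CDK2 was called at -0.22 (0.0335) without HCC+ 1.2 mg/mL replicate 2. With HCC- vesicles 2 genes were higher and 7 lower at 1.2 than at 0.048 mg/mL (24.9% and 28.0%). CDKN2B was higher by 1.21 ± 0.12 and CDK6 by 0.44 ± 0.09 (0.000171). The changes of the others ran from -0.51 ± 0.07 for CCND3 to -1.33 ± 0.06 for CDK4 and -1.33 ± 0.13 for CCNE2, and CDKN1B, at 0.07, did not pass. Against the blank CDK6 was lower at 0.048 mg/mL and did not pass the test at 1.2 mg/mL. CDKN1B was called in 2 of 13 alternatives, at 0.36 (0.000276) with total count alone. With that scaling the called genes that moved by over 1.5 times were CCND3 at -0.22, CCNE1 at -0.25, CCND1 at -0.32, CDKN2C at -0.54 and CDK6 at 0.73, all still called. With GC and length trends removed CCNE1 was at -0.32.

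The log2 difference of HCC+ from HCC-, taken with its sign, was higher at 1.2 than at 0.048 mg/mL for 7 genes. For CDKN2B it was lower (16.7% and 7.63% of all tested genes were higher and lower). At 0.048 mg/mL this difference was opposite in sign to 1.2 mg/mL for CCND1 (-0.19), CCND3 (-0.14), CDK4 (-0.16) and CDKN2B (0.11). It was also opposite for CCNE1 (-0.005) and CDKN2C (-0.01), and none of these was called at 0.048 mg/mL. The change in the source effect was 1.30 ± 0.18 log2 for CCNE2, 0.80 ± 0.10 for CDK2, 0.80 ± 0.09 for CDK4 and 0.75 ± 0.10 for CCND3. It was 0.52 ± 0.09 for CCND1, 0.50 ± 0.09 for CCNE1, 0.46 ± 0.16 for CDKN2C and -0.64 ± 0.17 for CDKN2B. CDK6 at -0.26 ± 0.13 and CDKN1B at -0.14 ± 0.11 did not pass, but with total count alone both were called, CDK6 at -0.45 (0.0102) and CDKN1B at -0.34 (0.0282). The CDKN2C difference, at an adjusted p of 0.0362, held in 9 of 19 alternatives. It was lost without HCC+ 1.2 mg/mL replicate 2 (0.128) or 3 (0.0805), HCC+ 0.048 mg/mL replicate 1 (0.082) or 2 (0.0977), HCC- 1.2 mg/mL replicate 2 (0.098) or 3 (0.0737) and HCC- 0.048 mg/mL replicate 1 (0.105) or 2 (0.0543). It was also lost with total count alone (0.26, 0.237) and with GC and length trends removed (0.31, 0.128). CCND1 was at 0.32 (0.00562) with total count alone and 0.26 (0.158) with the trends removed, and CCNE1 at 0.31 (0.0181) with total count alone. Without HCC+ 1.2 mg/mL replicate 2 or HCC- 1.2 mg/mL replicate 2, CDK6 was called at -0.37 (0.0383) and -0.38 (0.024).

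Other genes of the same network were taken from lists by function. With TMM factors their counts stand beside 24.8% higher and 28.5% lower of all tested genes with HCC- at 1.2 mg/mL. These shares are 15.6% and 17.4% with HCC+, and 22.6% and 12.7% for HCC+ against HCC-. List counts with total count alone stand beside 8128 genes higher and 3097 lower of 19556 for HCC-, and 4657 and 2069 for HCC+. The RB and E2F family (13 genes, all tested) had 1 gene higher and 10 lower with HCC- at 1.2 mg/mL and 2 higher and 6 lower with HCC+, with medians of -0.57 and -0.19 log2 (24.8% and 28.5%, and 15.6% and 17.4%, of all tested genes; with total count alone 2 higher and 9 lower, and 2 higher and 3 lower). The repressor E2F8 changed by -1.88 ± 0.09 with HCC- (adjusted p 3.15e-17), E2F2 by -1.56 ± 0.08, the RB relative RBL1 by -1.54 ± 0.11 and the activator E2F1 by -1.23 ± 0.09. E2F1 rose by 0.28 ± 0.09 with HCC+ (0.0138), opposite to HCC-, and so was 1.51 ± 0.09 higher with HCC+ than with HCC-.

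The E2F targets of the start of S phase (9 genes of DNA replication and nucleotide supply) were all lower with both sources, 9 of 9 each, with medians of -1.48 log2 for HCC- and -0.43 for HCC+, and 9 of 9 were higher with HCC+ than with HCC- (28.5% and 17.4% of all tested genes were lower, and 22.6% higher between sources). RRM2, a subunit of ribonucleotide reductase, changed by -2.12 ± 0.08 with HCC-, the origin licensing factor CDC6 by -1.72 ± 0.08, the helicase subunit MCM2 by -1.54 ± 0.08 and the origin factor ORC1 by -1.48 ± 0.07. With total count alone 9 of 9 were lower with each source, and with GC and length trends removed 9 with HCC- and 8 with HCC+. Of all tested genes, 4695 with HCC- and 3665 with HCC+ were lower with these trends removed.

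Of the other cyclins, kinases and inhibitors of G1 (9 of 10 tested) 2 were higher and 5 lower with HCC-, and 2 higher and 3 lower with HCC+, or 3 and 3, and 2 and 1, with total count alone. The 2 of 9 that were higher with HCC- are close to the 24.8% of all tested genes. The medians were -0.36 and -0.18 log2. Cyclin A2 (CCNA2) changed by -1.52 ± 0.09 with HCC- and the CDK-activating phosphatase CDC25A by -1.42 ± 0.08. The inhibitors CDKN1A (p21), by 0.39 ± 0.06 with HCC- and 0.59 ± 0.06 with HCC+, and CDKN1C (p57), by 0.88 ± 0.14 and 0.92 ± 0.14, rose with both. Genes that degrade G1 cyclins and p27 (8 genes) had 1 higher and 5 lower with HCC-, and 1 higher and 3 lower with HCC+, or 2 and 4, and 1 and 1, with total count alone. The medians were -0.40 and -0.17 log2, and the shares of all tested genes were 24.8% and 28.5% with HCC- and 15.6% and 17.4% with HCC+. The adaptor of p27 destruction CKS1B changed by -1.01 ± 0.07 and the F-box protein SKP2 by -1.02 ± 0.08 with HCC-, SKP1 by -0.51 ± 0.08 and RBX1 by -0.44 ± 0.06.

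Factors known to act on the p27 and p15 genes (8 genes) had 3 higher and 2 lower with HCC- and 1 of each with HCC+, with medians of -0.02 and 0.03 log2, counts close to the shares of all tested genes (24.8% and 28.5%, and 15.6% and 17.4%). ZBTB17, the MYC partner at the p15 gene, rose by 0.97 ± 0.09 with HCC- and 0.67 ± 0.09 with HCC+, FOXO4 by 0.39 ± 0.11 and FOXO3 by 0.19 ± 0.06 with HCC-. SMAD2 changed by -0.25 ± 0.06 with HCC-, which turned to 0.03 with total count alone. MYC was at 440 ± 42.9 CPM in the blank, 362 ± 0.962 CPM with HCC+ and 389 ± 17.8 CPM with HCC- at 1.2 mg/mL (SD, n = 3), and its HCC+ change of -0.28 was -0.16 with total count alone, while its HCC- change of -0.18 turned to 0.10 with total count alone. With total count alone this list had 5 higher and 0 lower with HCC- (median 0.26 log2) and 3 higher and 1 lower with HCC+ (median 0.15 log2). The medians over all tested genes with that scaling were 0.33 (HCC-) and 0.13 (HCC+). These lists were described by counts and medians only, beside medians of 0.05 (HCC-) and 0.01 (HCC+) over all tested genes with TMM factors.

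**Figure D4:**
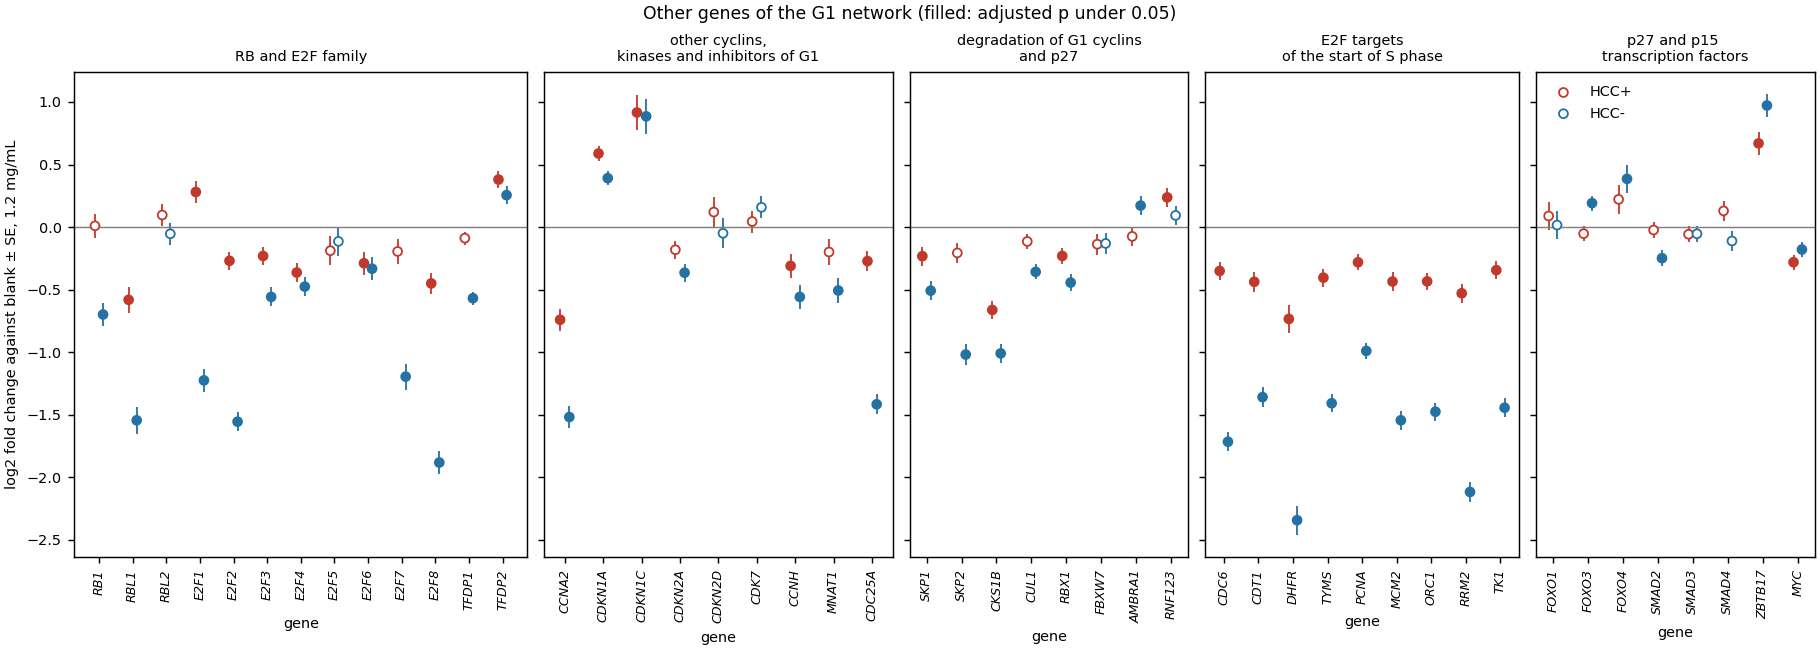
Log2 fold change against the blank at 1.2 mg/mL with its SE for the other genes of the G1 network, in 5 lists, red for HCC+ and blue for HCC-, filled where the adjusted p was under 0.05. All 9 E2F targets lie below 0 with both sources, and E2F1 lies above 0 with HCC+ only.

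Across the 21 libraries the E cyclins and CDK2 varied most alike among the 45 pairs of the 10 genes: Pearson's r of log2 CPM was 0.955 for CCNE2 with CDK2, 0.954 for CCNE1 with CDK2 and 0.944 for CCNE1 with CCNE2. The lowest values were -0.932 for CDK4 with CDKN2B and -0.905 for CDKN2B with CDKN2C. Outside the 10 genes, of 12006 candidates, the nearest pattern to CCNE1 was that of the exonuclease EXO1 (0.978), to CCNE2 that of the helicase BRIP1 (0.973) and to CDKN2C that of the kinetochore gene SKA1 (0.973). The proteasome subunit PSMA7 was nearest to CDK4 (0.994) and the splicing factor PTBP1 to CCND1 (0.965). FAT1 was nearest to CDKN2B (0.976), VMP1 to CDK6 (0.946) and SMIM8 to CDKN1B (0.694). These values describe the same 21 libraries, which fall into groups of 3 and share the same doses and sources, and they carry no test.

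**Figure D5:**
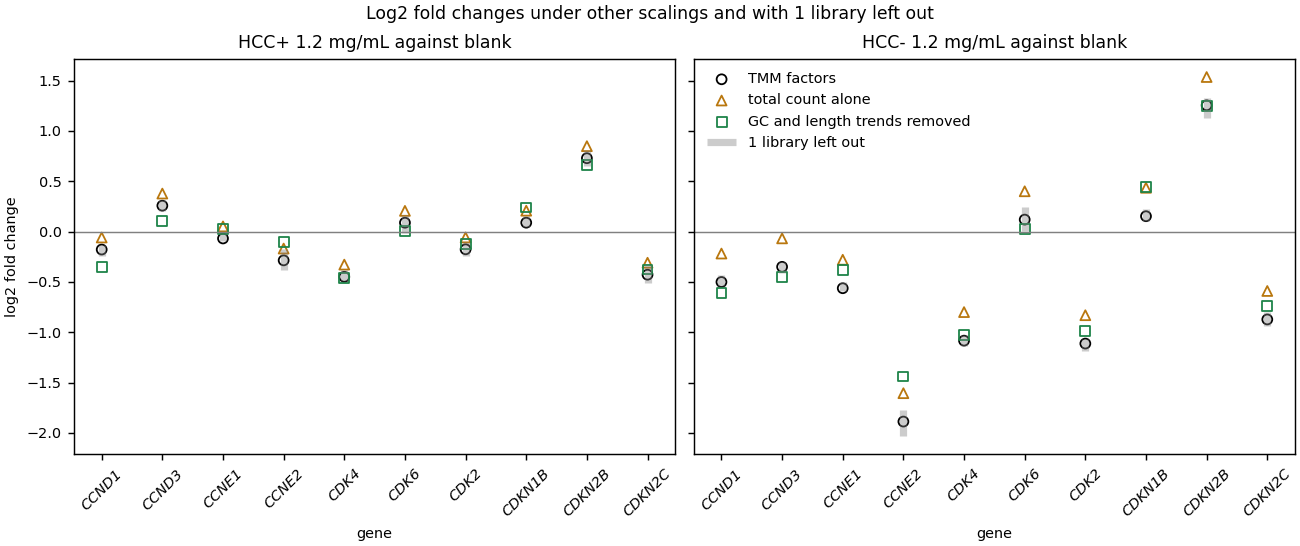
Log2 fold change against the blank at 1.2 mg/mL for each gene under TMM factors, total count alone and GC content and length trends removed, with grey bars for the range when 1 library is left out. With HCC- vesicles CCND3 lies at -0.35, -0.07 and -0.45 and CDKN1B at 0.15, 0.44 and 0.45 in that order.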

How the data were processed

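Poly(A) RNA of HCT-116 cells was sequenced in 21 libraries of 7 groups of 3, and the deposited values are raw counts of reads per gene on GRCh38. Per the submitters' processing notes, cutadapt 3.4, HISAT2 2.2.1 and featureCounts 2.0.1 were used by the authors. The annotation release and the settings for strand and multimapping were not given in the sources used here. Whether reads of overlapping genes on opposite strands were counted apart is therefore not known. The part of such overlaps in the TPM levels and in the shares within pairs was not tested.

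The counts entered a single edgeR 4.0.16 fit (R 4.3.3) of 7 groups (TMM factors, filterByExpr, robust dispersions, quasi-likelihood F test, 2-sided, 14 residual degrees of freedom), with Benjamini-Hochberg adjustment over 19556 genes and a threshold of 0.05. TPM used the deposited gene lengths. SE is the log2 fold change divided by the square root of F. The libraries held 31.22 to 64.01 M counts, which limits the precision for genes with few counts. The method was tested on simulated data. In these, equal numbers of genes were raised and lowered in a single group, far fewer than were called at 1.2 mg/mL. The simulation therefore cannot show how the choice of scaling acts at that dose. The 10 genes and the lists were chosen with earlier results of these data known. Named from each list were up to 4 called genes with the smallest p for HCC- 1.2 mg/mL against the blank, and MYC, E2F1 with HCC+ and the neighbours of the 10 genes by choice after their values were seen. The nearest gene to each of the 10 was the gene with a symbol and a mean of at least 1 log2 CPM that had the highest Pearson's r of log2(CPM + 1) over the libraries. Those of CDK2 and CCND3 are not reported here.

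Alternatives were RLE size factors, total count alone, no filter, DESeq2 1.42.0, a replicate block, only the groups compared, GC content and length trends removed within libraries (natural splines with 5 degrees of freedom, set by 12238 genes, GC content from GENCODE v29 transcripts known for 99.7% of tested genes), and each library left out. No 2 libraries of a group were alike within counting noise, the lowest chi-square per degree of freedom of a replicate pair being 4.22. RefSeq promoters gave the sequences. The plots come from matplotlib 3.10.9 (Python 3.11.15).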

Additional observations from a re-analysis of the deposited data

Results flagged for a closer look

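The effect of vesicle source differed between 1.2 and 0.048 mg/mL for 8 of the 10 genes by a test of that difference in edgeR (log2, HCC+ against HCC-, 1.2 minus 0.048 mg/mL), beside 16.7% of all tested genes higher and 7.63% lower. It was higher by 1.30 for CCNE2, 0.80 for CDK2, 0.80 for CDK4, 0.75 for CCND3, 0.52 for CCND1, 0.50 for CCNE1 and 0.46 for CDKN2C, and lower, at -0.64, for CDKN2B. Of 19 alternatives CDKN2C was called in 9 and CCND1 in 18, and the rest of the 8 genes in all 19.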

How the results depend on the processing

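No called change of the 10 genes changed direction under any alternative run. The count of called genes for HCC- 0.048 mg/mL against the blank, 3, was 0 with GC content and length trends removed and 0 to 5 with 1 library left out. For HCC+ against HCC- at 0.048 mg/mL it was 0, but 3 with only the groups compared and 2 with DESeq2. For HCC+ at 1.2 against 0.048 mg/mL it was 4, and 2 without HCC+ 0.048 mg/mL replicate 3. The cause was not tested. The other 154 counts under alternatives were within 1.5 times the value given. Of single genes, 51 values lost their call and 26 gained one. Replicate numbers did not pair libraries: residuals of same-numbered libraries correlated above 0.1 in 0 of 63 pairs. With a replicate block the count for HCC+ 1.2 mg/mL against the blank was 5 in place of 6, without CDK2 (adjusted p 0.0545), and no other count of the 12 changed. CCNE2, CDKN2B and CDKN2C had the fewest counts, 197 to 681 per library for CCNE2, and the widest standard errors; the part of depth in these was not tested.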
